A study of Homo sapiens with 9 samples.

Results

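The transcripts described here belong to 34 genes of the unfolded protein response and of protein folding in the endoplasmic reticulum (ER). They were listed by symbol: 8 folding chaperones and co-chaperones of the Hsp70 and Hsp90 families, 2 lectin chaperones, 4 protein disulfide isomerases, 2 small stress-induced proteins, 6 sensors, transcription factors and their protease, 8 genes of ER-associated degradation and 4 of translocation into the ER. All 34 of 34 had a row among the 16750 genes of the deposited table, and all 34 passed the filter on low values that left 14554 genes for testing (a level of at least 1 CPM, counts scaled to a library of 1e+06 reads, in 3 or more libraries). Of them, 33 reached 1 CPM in all 9 libraries, and DERL3 did so in 5. Membership used no threshold on a change between the lines, but the members were chosen with earlier results of these data known.

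RNA was sequenced from PANC-1, a human cell line from a pancreatic ductal carcinoma, after lentiviral transduction. Of the 9 libraries, 3 came from cells that received the empty plasmid pLV-EV (vector), 3 from cells that received pLV-SLC22A10 (SLC22A10_OE) and 3 from cells that received pLV-SLC22A15 (SLC22A15_OE), with the latter pair of genes coding for organic ion transporters of the plasma membrane. All lines were selected with puromycin and kept in it, in DMEM with serum, so the vector cells shared the virus and the drug. The labels call them stable clones without saying how many clones stand behind a line, and nothing says that the libraries of a line came from separate cultures. The sample titles end in A1, A2 and B1 in every line without saying what the letters and numbers mean, and the table's columns, numbered 1 to 3, could not be matched to them. The p-values below therefore rest on library-to-library spread that could be purely technical, and differences between lines include whatever else separates one clone from another.

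Proteins bound for secretion or for membranes enter the ER through the Sec61 channel and fold there with the help of chaperones such as BiP (HSPA5), of lectins that hold glycoproteins, and of disulfide isomerases. When unfolded proteins build up, the sensors IRE1 (ERN1), ATF6 and PERK signal to the nucleus: IRE1 splices the mRNA of XBP1, ATF6 is cut by the site-1 protease (MBTPS1) to release a transcription factor, and PERK slows translation and favours ATF4. The response raises chaperones, disulfide isomerases and the degradation machinery that retrotranslocates misfolded proteins, and exocrine pancreas is a tissue with a heavy folding load. Gene totals, as measured here, do not show the splicing of XBP1, the cleavage of ATF6 or the phosphorylation of the sensors.

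The libraries held 28.4 to 42.9 M reads (1 M is 1e+06), so that 1 CPM stood for 27.8 to 43.4 reads, with a counting SD of 15.2% to 19%. SLC22A10 was listed at 80.5, 91.4 and 84.4 CPM in its own line against 0 to 0.03 CPM elsewhere. SLC22A15 was at 78.3, 73.3 and 76.1 CPM in its own line, 6.52, 6.36 and 5.46 CPM in vector and 3.44, 4.12 and 3.96 CPM in SLC22A10_OE. KRT8, KRT18, KRT19, SOX9 and VIM were detected in all libraries, whereas the ductal keratin KRT7 stayed at 0.10 to 0.56 CPM and EPCAM, CDH1 and CFTR had no row. Of 14 acinar markers, 1 had a row (CTRB1, at most 0.70 CPM), and of 6 plasma and B cell markers only SDC1, which epithelial cells also express. In 1 library of each line (vector 1, SLC22A10_OE 3 and SLC22A15_OE 1, numbered as the table's columns) mitochondrial ribosomal RNA took 0.00958% to 0.0151% of the reads, against 0.0454% to 0.0843% in the other 6.

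Several of the 34 genes carry a known control element in their promoter, and the stretches that hold it are shown because the members are usually thought of as one regulated group. The ER stress response element, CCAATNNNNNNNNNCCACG, pairs a CCAAT box with a CCACG site bound by ATF6 and XBP1. It was searched on both strands of RefSeq promoters (GRCh38.p14, 300 bases, from 250 before to 50 after the start), of which 31 of the 34 members had at least one. PDIA3, DERL1 and DERL3 had no entry. The full element stood in 8 of 31 members (25.8%), against 25 of 27305 genes with a promoter entry (0.0916%) and 18 of the 11161 of these that were tested (0.161%). The element was defined on promoters of this family, so the share describes the list and is no independent result. The lines below give each element with 12 bases on either side, 5′ to 3′ on the gene's own strand. Capitals mark the CCAAT box and CCACG, or CGTGG and ATTGG where the element lies on the opposite strand.
HSPA5, chr9:125241379-125241421, minus strand: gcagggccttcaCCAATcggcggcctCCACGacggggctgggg
HSP90B1, chr12:103930204-103930351, plus strand, with 2 elements: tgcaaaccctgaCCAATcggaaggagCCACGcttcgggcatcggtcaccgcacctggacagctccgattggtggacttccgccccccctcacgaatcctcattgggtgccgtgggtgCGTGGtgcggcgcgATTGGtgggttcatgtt
CALR, chr19:12938372-12938414, plus strand: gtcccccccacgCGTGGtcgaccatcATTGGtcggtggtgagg
CANX, chr5:179698766-179698808, plus strand: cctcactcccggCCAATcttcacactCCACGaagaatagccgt
PDIA6, chr2:10812841-10812883, minus strand: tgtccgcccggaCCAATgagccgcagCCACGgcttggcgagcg
CRELD2, chr22:49918542-49918584, plus strand: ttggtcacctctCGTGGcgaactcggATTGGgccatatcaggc
XBP1, chr22:28800591-28800633, minus strand: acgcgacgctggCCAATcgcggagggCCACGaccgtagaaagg
SERP1, chr3:150546698-150546740, minus strand: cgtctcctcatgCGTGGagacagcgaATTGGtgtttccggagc

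The shorter second form of the element, ATTGGNCCACG, was found in 3 other members, HERPUD1, HYOU1 and SDF2L1 (9.68% of 31, against 19 of 27305 genes or 0.0696%). The unfolded protein response element TGACGTGG was found in HYOU1 alone (3.23% of 31, against 253 of 27305 genes or 0.927%). There it overlaps a match to the second form, so it is not a separate stretch. TGACGTGA was found in no member, against 0.52% of the 27305 genes. A match is a string of letters and not a measured site, and the absence of one says only that the letters are not in this window.

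In SLC22A10_OE the set moved in both directions, with more members higher than lower. Against vector, 21 of 34 members were higher and 8 lower at an adjusted p under 0.05 (limma on log2(CPM + 1), Benjamini-Hochberg over all 14554 genes tested), and 5 (CANX, EDEM1, DERL1, SYVN1 and SSR1) did not pass. The line differed from vector in much of its transcriptome: 67.2% of all genes tested passed, 34.7% higher and 32.5% lower. The members' 61.8% higher thus stood above the share of all genes and their 23.5% lower below it. The members were chosen with earlier results of these data known, so this difference describes the list and is no independent result. Their median log2 fold change was 0.28, and that of all genes tested 0.00. The libraries of the 2 groups did not overlap for 22 members on the higher and 8 on the lower side, where 69.2% of all genes did not overlap, 35.4% higher and 33.8% lower. When each library was centred on its own median gene, the fold changes of all genes shifted by -0.12 in the median and the calls over all genes turned from 5047 higher and 4728 lower to 3875 and 6233. The members then gave 18 higher and 9 lower, with a median of 0.16. In bulk RNA, fewer cells that express a gene and less RNA per cell cannot be told apart.

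**Figure D1:**
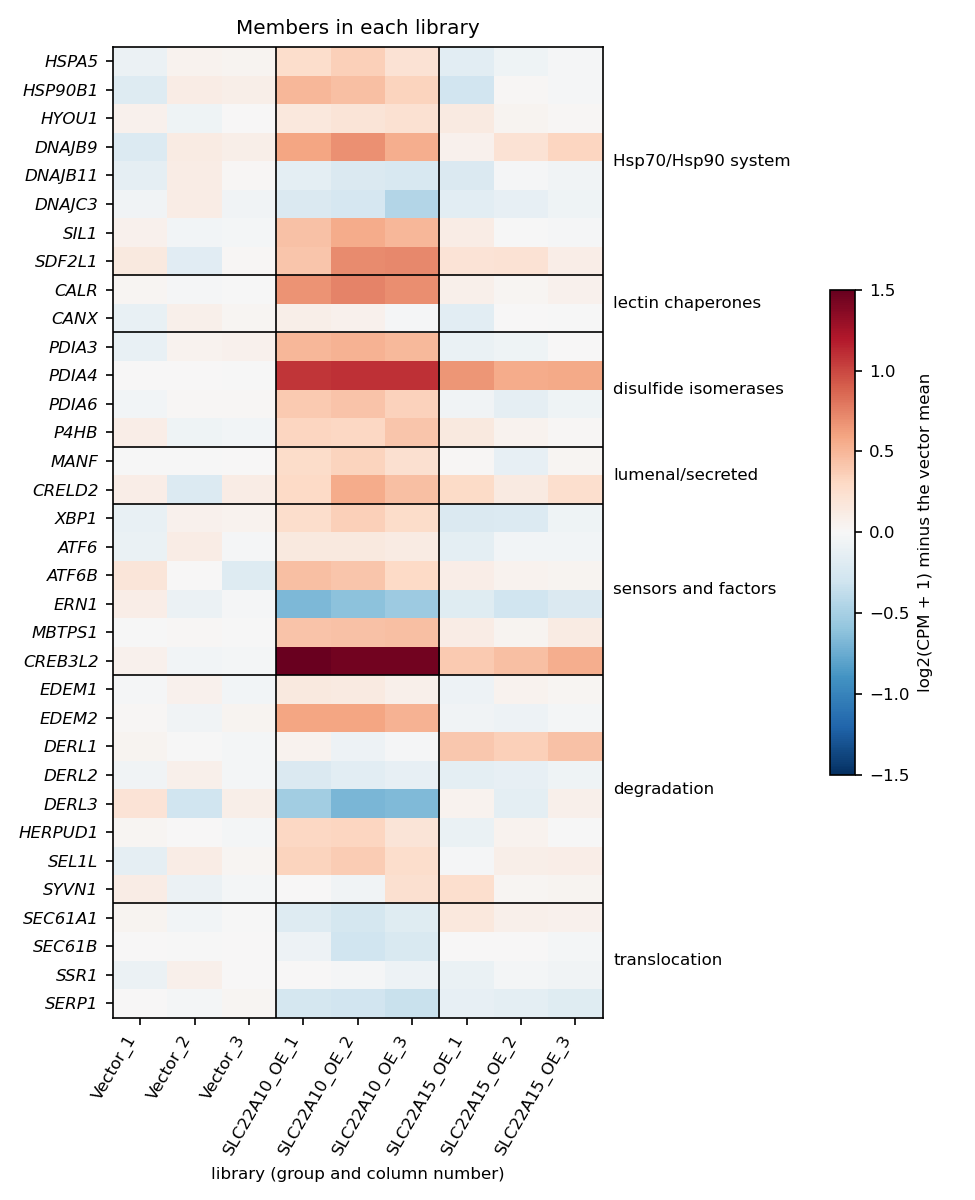
Each cell of the map is 1 of 34 members (rows, grouped by role) in 1 of 9 libraries (columns), coloured by log2(CPM + 1) minus the vector mean of that gene. CREB3L2 and PDIA4 are the darkest red rows in the 3 SLC22A10_OE columns, and most SLC22A15_OE cells are pale.

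**Figure D2:**
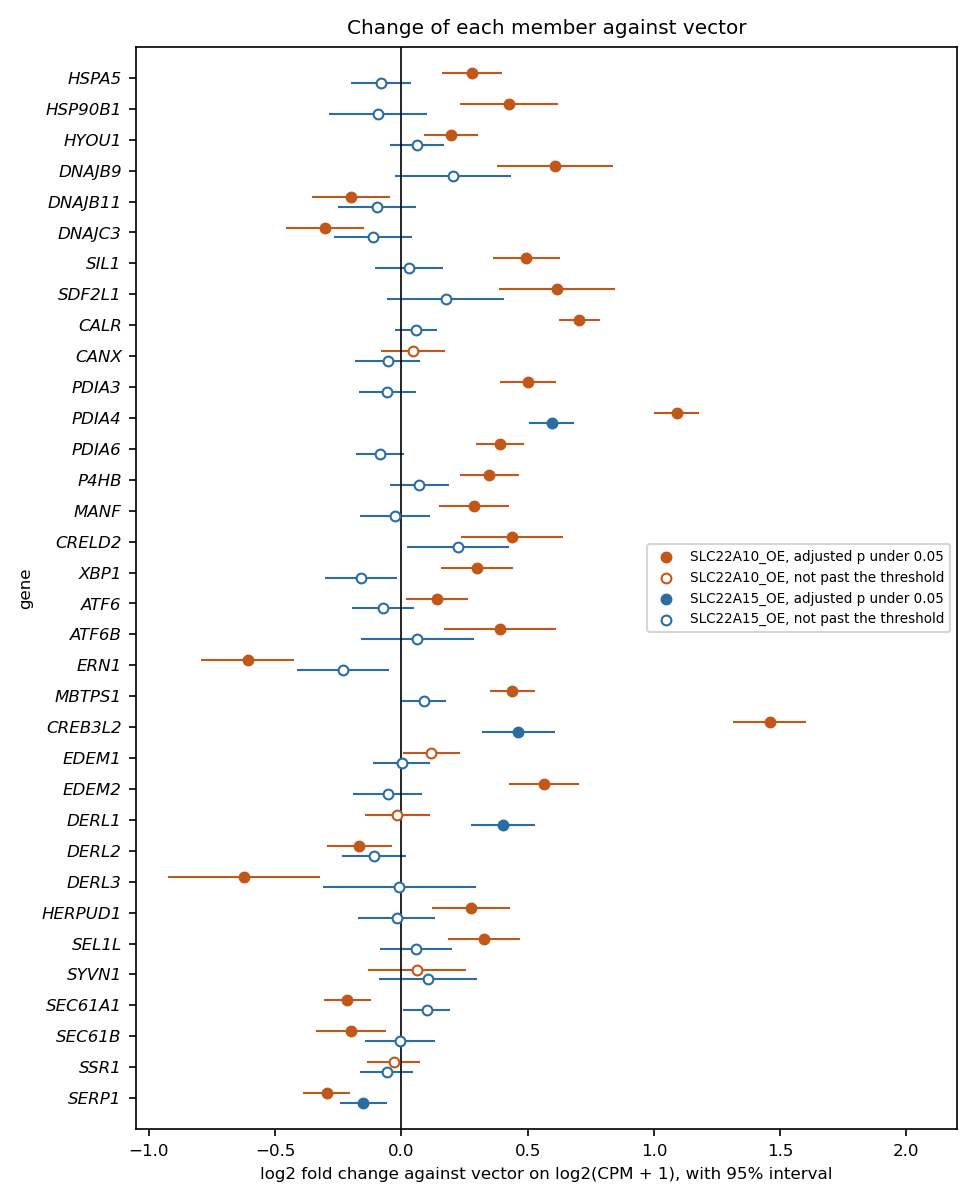
Log2 fold change of each member (rows) against vector on the log2(CPM + 1) scale (x axis), with the 95% interval from limma as a line. Filled points passed the threshold: 29 in SLC22A10_OE (orange) and 4 in SLC22A15_OE (blue).

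Of the Hsp70 and Hsp90 system, 6 of 8 members rose in SLC22A10_OE and the J-domain proteins DNAJB11 and DNAJC3 fell. Over all genes tested, 34.7% were higher and 32.5% lower. HSPA5 encodes BiP, the Hsp70 of the ER lumen and the classical reporter of ER stress. It was at 551, 610 and 604 CPM in the vector libraries and at 708, 750 and 682 CPM in SLC22A10_OE. The 3 SLC22A10_OE libraries all lay above the 3 vector libraries, yet the rise was small, with a log2 fold change of 0.28 ± 0.05 (SE, limma adjusted p 0.000548). With each library centred on its median it was 0.16 (adjusted p 0.0235). HSP90B1, the lumenal Hsp90 GRP94, went from 409, 505 and 500 CPM to 662, 642 and 590 CPM, a log2 fold change of 0.43 ± 0.09 (limma adjusted p 0.000973). Its vector libraries differed among themselves more than those of HSPA5, and vector 1, the lowest, was the one with little mitochondrial ribosomal RNA.

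The exchange factors and helpers of BiP went up by different amounts. HYOU1, a large Hsp70 that exchanges BiP's nucleotide, was at 182, 166 and 175 CPM in vector and 194, 199 and 205 CPM in SLC22A10_OE (log2 fold change 0.20 ± 0.05, limma adjusted p 0.00332). That rise did not survive centring, where it was 0.07 with an adjusted p of 0.179. The other exchange factor, SIL1, went from 36.3, 33.7 and 33.9 CPM to 47.3, 51.3 and 49.1 CPM (log2 fold change 0.50 ± 0.06, limma adjusted p 1.28e-05). DNAJB9 (ERdj4), a J-domain protein that brings BiP to IRE1, was among the less abundant members, at 5.94, 7.65 and 7.45 CPM in vector. It reached 11.0, 11.9 and 10.6 CPM in SLC22A10_OE, a log2 fold change of 0.61 ± 0.11 (limma adjusted p 0.00022). SDF2L1, a partner of the lumenal J-domain proteins, rose by nearly the same amount, from 9.54, 7.48 and 8.67 CPM to 11.7, 14.6 and 14.7 CPM (log2 fold change 0.62 ± 0.11, limma adjusted p 0.00021). For these genes the groups did not overlap.

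DNAJB11 (ERdj3), which binds unfolded clients and hands them to BiP, went the other way. Its vector libraries held 61.6, 73.2 and 68.5 CPM and its SLC22A10_OE libraries 61.1, 58.1 and 57.2 CPM, so the nearest libraries of the groups almost touched. The log2 fold change of -0.20 ± 0.07 (limma adjusted p 0.0253) lost its call in the absence of any 1 of 4 libraries, with an adjusted p of 0.112 without vector 2, 0.0723 without vector 3, 0.0706 without SLC22A10_OE 2 and 0.0729 without SLC22A10_OE 3. DNAJC3 (P58IPK), a co-chaperone first described as an inhibitor of PERK, was at 43.7, 49.1 and 44.0 CPM in vector and 38.9, 38.1 and 33.2 CPM in SLC22A10_OE. All 3 were below vector, with a log2 fold change of -0.30 ± 0.07 (limma adjusted p 0.00209).

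The lectin chaperones parted. Calreticulin (CALR), the soluble one, was at 669, 651 and 655 CPM in vector and at 1054, 1099 and 1068 CPM in SLC22A10_OE, a log2 fold change of 0.70 ± 0.04 (limma adjusted p 5.57e-09). Its libraries were tight within each line and far apart between them. Calnexin (CANX), its membrane-bound homologue, was at 1377, 1571 and 1524 CPM in vector and 1582, 1562 and 1466 CPM in SLC22A10_OE. Those ranges overlapped, and the log2 fold change of 0.05 had a 95% interval from -0.08 to 0.17 (limma adjusted p 0.515). Both promoters carry the ER stress response element printed above.

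All 4 disulfide isomerases rose in SLC22A10_OE, where 34.7% of all genes tested were higher. PDIA4 (ERp72) changed most: 188, 188 and 186 CPM in vector and 394, 403 and 403 CPM in SLC22A10_OE, which is 2.13 times the vector mean (log2 fold change 1.09 ± 0.04, limma adjusted p 2.62e-10). The spread within either line was a few CPM. PDIA3 (ERp57), which works with calreticulin and calnexin on glycoproteins, went from 163, 182 and 184 CPM to 249, 252 and 248 CPM (0.50 ± 0.05, limma adjusted p 2.3e-06). PDIA6 was at 209, 217 and 217 CPM and then at 282, 289 and 273 CPM (0.39 ± 0.04, limma adjusted p 5.09e-06). P4HB, the founding disulfide isomerase and also a subunit of prolyl 4-hydroxylase, was at 474, 423 and 429 CPM and then at 550, 547 and 591 CPM (0.35 ± 0.05, limma adjusted p 9.02e-05). No vector library reached the SLC22A10_OE range for any of the 4.

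MANF and CRELD2, small proteins that are induced by ER stress and can be secreted, also rose. MANF was at 26.6, 26.6 and 26.8 CPM in vector and 32.6, 34.0 and 31.8 CPM in SLC22A10_OE (0.29 ± 0.06, limma adjusted p 0.00147). CRELD2 was at 25.8, 20.8 and 26 CPM and then at 29.9, 36.0 and 33.3 CPM (0.44 ± 0.09, limma adjusted p 0.00106). The lower vector library of CRELD2 was vector 2.

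Among sensors and transcription factors, 5 of 6 rose in SLC22A10_OE and ERN1 fell, beside 34.7% of all genes higher and 32.5% lower. CREB3L2, a membrane-bound bZIP factor of the ATF6 kind that drives genes of the secretory pathway, had the largest fold of all 34 members. It went from 14.7, 13.6 and 13.8 CPM in vector to 40.9, 40.1 and 39.9 CPM in SLC22A10_OE, 2.87 times the vector mean (log2 fold change 1.46 ± 0.07, limma adjusted p 1.31e-09). XBP1, the substrate of IRE1, went from 42.0, 47.4 and 47.1 CPM to 54.8, 58.4 and 55.1 CPM (0.30 ± 0.07, limma adjusted p 0.00138). ERN1 itself, which encodes IRE1 alpha, was at 12.7, 11.1 and 11.6 CPM in vector and at 7.0, 7.38 and 7.81 CPM in SLC22A10_OE. The sensor's transcript was thus lower by -0.61 ± 0.08 on the log2 scale (limma adjusted p 3.29e-05) in the line where that of its substrate was higher.

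ATF6 stood at 138, 160 and 146 CPM in vector and 164, 164 and 160 CPM in SLC22A10_OE, with vector 2 next to the SLC22A10_OE range. Its log2 fold change of 0.14 ± 0.06 had a limma adjusted p of 0.0412 and lost its call in 12 of 21 alternatives, with adjusted p-values from 0.0538 to 0.772. Among these, the adjusted p was 0.149 without vector 1, 0.109 without vector 3, 0.0934, 0.0982 and 0.0604 without SLC22A10_OE 1, 2 and 3, and 0.0538 and 0.0543 without SLC22A15_OE 2 and 3. The call for ATF6 is therefore at the edge of what these libraries resolve. ATF6B, its less abundant paralogue, was at 7.63, 6.61 and 5.65 CPM and then at 9.41, 9.16 and 8.31 CPM (0.39 ± 0.10, limma adjusted p 0.00445). MBTPS1, the protease that makes the first cut in ATF6, was at 163, 164 and 162 CPM in vector and at 219, 221 and 224 CPM in SLC22A10_OE (0.44 ± 0.04, limma adjusted p 9.44e-07).

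**Figure D3:**
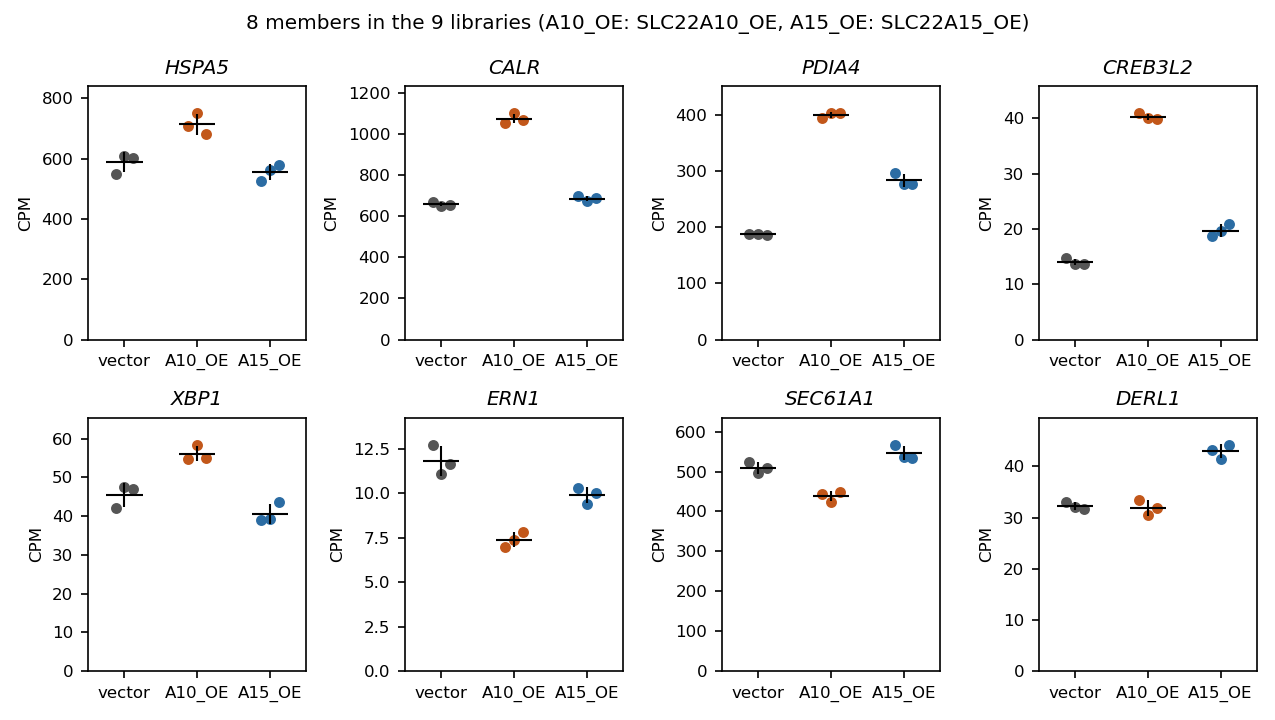
CPM of 8 members (panels) in the 9 libraries, with points for libraries, horizontal bars for the mean and vertical bars for 1 SD (n = 3), all axes from 0. CALR, PDIA4 and CREB3L2 separate SLC22A10_OE (orange) from the other lines, ERN1 and SEC61A1 are lowest there, and DERL1 is high in SLC22A15_OE (blue) alone of the 3 lines.

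ER-associated degradation had no common direction in SLC22A10_OE, with 3 of 8 members higher, 2 lower and 3 not past the threshold. These counts lay near the shares over all genes tested, 34.7% higher and 32.5% lower. EDEM2, which starts mannose trimming of misfolded glycoproteins, went from 19.6, 18.6 and 20.0 CPM to 29.7, 29.8 and 28.2 CPM (0.57 ± 0.06, limma adjusted p 4.94e-06). Its span overlaps a readthrough gene with MMP24-AS1, whose reads may be counted with it. SEL1L, the scaffold of the HRD1 ligase, was at 64.9, 77.2 and 73.3 CPM and then at 90.7, 93.4 and 86.3 CPM (0.33 ± 0.07, limma adjusted p 0.000669). HERPUD1, another part of that complex, was at 17.8, 17.5 and 17.0 CPM and then at 21.9, 22 and 20.1 CPM (0.28 ± 0.07, limma adjusted p 0.00387), but had an adjusted p of 0.0734 after centring. The ligase itself, SYVN1 (HRD1), was at 33.2, 29 and 30.2 CPM in vector and 30.7, 29.6 and 36.6 CPM in SLC22A10_OE, and these ranges overlapped (limma adjusted p 0.55).

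The derlins, membrane proteins of the same machinery, were lower or near their vector level. DERL3, the rarest member, was at 1.82, 0.985 and 1.59 CPM in vector and 0.698, 0.515 and 0.540 CPM in SLC22A10_OE. Its mean was 0.40 times that of vector, while the log2(CPM + 1) scale, which compresses low values, gave -0.62 ± 0.14 (limma adjusted p 0.00151). DERL2 was at 38.9, 42.4 and 39.5 CPM and then at 34.4, 36.0 and 36.8 CPM (-0.17 ± 0.06, limma adjusted p 0.0238). That call was lost without vector 2 (adjusted p 0.0987) and without SLC22A10_OE 1 (0.0861). DERL1 was at 33.1, 32.0 and 31.6 CPM in vector and 33.4, 30.4 and 31.8 CPM in SLC22A10_OE, with a 95% interval of the log2 fold change from -0.14 to 0.11. EDEM1, a textbook target of XBP1, was at 88.6, 93.7 and 87.4 CPM and then at 99.4, 98.7 and 94.8 CPM. The groups did not overlap for EDEM1, but its log2 fold change of 0.12 had a limma adjusted p of 0.0591. It passed without vector 2 (adjusted p 0.0375) and without SLC22A15_OE 1 (0.044).

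Of the 4 translocation genes, 3 fell in SLC22A10_OE and none rose, where 32.5% of all genes were lower. SEC61A1, the pore of the Sec61 channel, was at 525, 496 and 508 CPM in vector and 445, 424 and 449 CPM in SLC22A10_OE (-0.21 ± 0.04, limma adjusted p 0.0007). SEC61B, a small subunit of that channel, was at 37.4, 37.1 and 37.5 CPM and then at 35.4, 30.2 and 31.7 CPM (-0.20 ± 0.06, limma adjusted p 0.014), with an adjusted p of 0.0698 without SLC22A10_OE 2. SERP1 (RAMP4), which associates with the channel and is known as a stress-induced gene, was at 156, 152 and 159 CPM and then at 129, 128 and 123 CPM (-0.30 ± 0.04, limma adjusted p 4.83e-05). Of the 8 members with the ER stress response element, SERP1 was the one that fell. SSR1, a subunit of the translocon-associated complex, was at 295, 331 and 314 CPM in vector and 315, 309 and 297 CPM in SLC22A10_OE. Its ranges overlapped, and the 95% interval of the log2 fold change ran from -0.14 to 0.07.

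Split by the element, most members of either kind rose in SLC22A10_OE. Of the 8, 6 were higher, 1 (SERP1) lower and 1 (CANX) not past the threshold, with a median log2 fold change of 0.34. Of the 23 with a promoter entry and without the full element, 14 were higher and 6 lower, with a median of 0.28. Among these 23 are HERPUD1, HYOU1 and SDF2L1, which carry the shorter second form and were all higher. CREB3L2 and PDIA4, the largest changes of the set, were among those without the full element. Over all genes tested, 34.7% were higher and 32.5% lower. These are counts in lists of unequal size, and no test was made of their difference.

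Scaled to transcript length, lectins and major chaperones were among the most abundant members, and sensors and transcription factors were spread over the range below. In vector, CALR and CANX led with 346 and 335 CPM per kb of exon, then P4HB with 170, HSP90B1 with 165, HSPA5 with 150 and SEC61A1 with 128. The lowest were DERL3 with 0.439, ERN1 with 1.21 and CREB3L2 with 1.66 CPM per kb. CALR stood at 564 and CANX at 346 CPM per kb in SLC22A10_OE, so that these neighbours in the vector order were far apart there. Length was the union of annotated exons, which need not be the isoform in use.

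In SLC22A15_OE few members departed from vector. Of 34, 3 were higher (PDIA4, CREB3L2 and DERL1), 1 was lower (SERP1) and 30 did not pass, where 20.4% of all genes tested passed, 10.8% higher and 9.58% lower. The median log2 fold change of the members was -0.01. Groups did not overlap for 7 members on the higher and 5 on the lower side, against 34.7% of all genes (18.1% and 16.6%). PDIA4 was at 296, 277 and 278 CPM, above every vector library and 1.51 times the vector mean (log2 fold change 0.59 ± 0.04, limma adjusted p 4.59e-07). CREB3L2 was at 18.7, 19.6 and 20.9 CPM, again above vector (0.46 ± 0.07, limma adjusted p 0.000252). DERL1, a channel component of retrotranslocation, was at 43.1, 41.5 and 44.2 CPM and was higher in this line (0.40 ± 0.06, limma adjusted p 0.000284). SERP1 was at 143, 140 and 138 CPM, below all vector libraries (-0.15 ± 0.04, limma adjusted p 0.0246). Its call was lost without vector 3 (adjusted p 0.112), without SLC22A15_OE 2 (0.0779) and without SLC22A15_OE 3 (0.0969).

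The main chaperones gave no call in SLC22A15_OE. HSPA5 was at 525, 563 and 580 CPM there, which overlaps vector, and its log2 fold change of -0.08 had a 95% interval from -0.20 to 0.04 (limma adjusted p 0.348). HSP90B1 was at 384, 476 and 465 CPM, with an interval from -0.29 to 0.10. For CALR the values were 696, 672 and 688 CPM, each above vector, with an interval from -0.02 to 0.14 (limma adjusted p 0.33). Over all 30 members without a call the 95% bounds ran from -0.42 to 0.43, and for 6 of them a bound went beyond 0.30 in size. XBP1, at 39.1, 39.2 and 43.6 CPM, had a log2 fold change of -0.16 (limma adjusted p 0.113), which passed without vector 1 (adjusted p 0.0265). ERN1 was at 10.3, 9.41 and 10.0 CPM, all below vector, with a log2 fold change of -0.23 (limma adjusted p 0.0732, and 0.0434 after centring).

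The count of calls in SLC22A15_OE depended on the libraries with little mitochondrial ribosomal RNA. In each of the 3 lines that library was the lowest of its line for the same 10 members, among them HSPA5, HSP90B1, PDIA3, CANX and SEL1L, and the highest for 5 (HYOU1, P4HB, ERN1, SYVN1 and SEC61A1). With a term for these libraries, 7 members were higher and 6 lower in SLC22A15_OE, beside 19.7% and 18.8% of all genes. The additional genes were P4HB, CRELD2, MBTPS1 and SEC61A1 on the higher side and HSPA5, HSP90B1, PDIA6, XBP1 and ERN1 on the lower. Without the 3 libraries altogether, an alternative chosen after seeing the data, 5 were higher and 4 lower, beside 16.1% and 14.8% of all genes. The SLC22A10_OE counts were 22 higher and 8 lower both with the term (39.1% and 37.6% of all genes) and without the libraries (36.8% and 35%). What set those libraries apart was not tested.

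Tested directly against each other, the overexpressing lines differed at most members. In SLC22A15_OE 7 members were higher and 20 lower than in SLC22A10_OE, and 7 did not pass, where 62.9% of all genes tested passed (30.8% higher and 32.1% lower). Libraries of the lines were fully apart for 7 members on the higher and 22 on the lower side, against 67.4% of all genes (33.3% and 34.2%). The members' median log2 difference was -0.27. Centring turned the calls over all genes from 4484 higher and 4674 lower to 5798 and 3713, and left 9 members higher and 17 lower. CREB3L2 differed by -1.0 (95% interval -1.14 to -0.85), CALR by -0.65 (-0.73 to -0.56), EDEM2 by -0.62 (-0.76 to -0.48) and PDIA3 by -0.56 (-0.67 to -0.44). PDIA4 was higher than vector in both lines and still differed between them by -0.50 (limma adjusted p 5.06e-07). The 7 that were higher in SLC22A15_OE were DERL3, DERL1, ERN1, SEC61A1, SEC61B, DNAJC3 and SERP1, which takes in all 3 translocation genes that had fallen in SLC22A10_OE. HSPA5 differed by -0.36 (limma adjusted p 8.47e-05).

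Some of these differences rested on single libraries. HYOU1 (-0.13, limma adjusted p 0.0305) lost its call without SLC22A10_OE 2 (adjusted p 0.068) or 3 (0.098) and without SLC22A15_OE 2 (0.0974) or 3 (0.117). DNAJC3 (0.19, adjusted p 0.0314) lost it without SLC22A10_OE 3 (0.145) and without SLC22A15_OE 2 (0.0664) or 3 (0.106). SEC61B (0.20, adjusted p 0.0173) lost it without SLC22A10_OE 2 (0.0827) or 3 (0.0509) and without SLC22A15_OE 2 (0.0517). CRELD2 (-0.22, adjusted p 0.0597) gained a call without vector 1 (0.0432), vector 2 (0.0261) or SLC22A10_OE 1 (0.0297). These 4 were the members whose call between the lines changed when 1 library was left out.

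The called members of SLC22A15_OE were set beside their neighbours in the genome. DNAJB9 (chr7:108569874-108574850), CREB3L2 (chr7:137874979-138002086) and PDIA4 (chr7:149003051-149028505) lie on the long arm of chromosome 7, and DERL1 (chr8:123013170-123042302) on that of chromosome 8, in GRCh38.p14. The 48 tested genes within 5 Mb on either side of PDIA4 had a median log2 fold change of 0.54 in SLC22A15_OE, and 36 of them were higher and 0 lower. PDIA4's own value was 0.59. Around CREB3L2, 33 of 42 neighbours were higher and 0 lower, with a median of 0.47 beside the gene's own 0.46. Around DNAJB9, 20 of 34 were higher and 0 lower, with a median of 0.33, whereas the gene's own 0.20 did not pass. DERL1 had 14 of 37 neighbours higher and 5 lower, with a median of 0.23. SERP1 (chr3:150541998-150546496) had 11 of 29 lower and 2 higher, with a median of -0.16 beside its own -0.15. Outside chromosomes 7 and 8, 0 of 30 members were higher in SLC22A15_OE and 1, SERP1, was lower. Of the tested genes outside these chromosomes, 8.32% were higher and 9.33% lower. These chromosomes were set apart after the calls were seen, and every member called higher in SLC22A15_OE lies on them. The 0 of 30 was therefore fixed by that choice. On chromosomes 7 and 8 themselves, 39.2% and 39.9% of the tested genes were higher, and 16.2% and 7.8% lower. The part of position in the members' changes was not tested. DNA copy number was not measured.

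In SLC22A10_OE the neighbours on chromosome 7 had medians above 0 as well, and the members' own values were larger. The median was 0.59 around PDIA4 (34 of 48 higher, 2 lower) against the gene's own 1.09, and 0.47 around CREB3L2 (30 of 42 higher, 2 lower) against 1.46. Around DNAJB9 it was 0.36 against 0.61. CALR, on chromosome 19, had a median of 0.21 over 206 neighbours against its own 0.70, and SERP1 equalled its neighbours at -0.30. Outside chromosomes 7 and 8, 18 of 30 members were higher and 8 lower, with a median of 0.28. Of the tested genes there, 34% were higher and 32.9% lower, with a median of -0.00. This split too was made after the calls were seen.

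**Figure D4:**
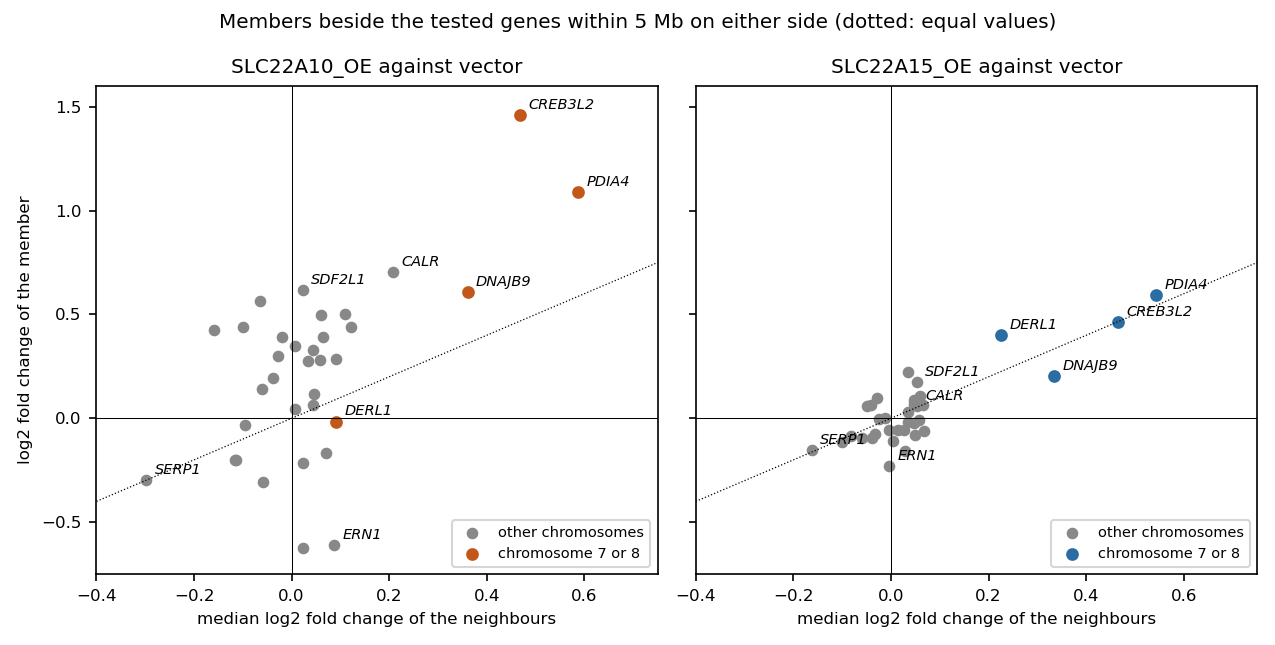
Log2 fold change of each member against vector (y axis) beside the median log2 fold change of the tested genes within 5 Mb on either side of it (x axis), 1 panel per line. Coloured points lie on chromosome 7 or 8, and the dotted line marks equal values. In SLC22A15_OE, CREB3L2 and PDIA4 lie on that line, and in SLC22A10_OE they lie above it.

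Markers of other cell types differed between the lines in both directions. The leukocyte genes with a row (CD14 and CSF1R, 2 of 4) summed to 8.29 to 10.0 CPM there against 1.78 to 2.36 CPM in vector and 1.89 to 2.38 CPM in SLC22A15_OE, and PTPRC and CD3E had no row. COL1A1, the 1 of 4 fibroblast markers with a row, was at 4.24 to 5.43 CPM against 0.40 to 0.68 and 0.30 to 0.60 CPM. CDH5, the 1 of 3 endothelial markers with a row, was at 6.24 to 7.65 CPM against 0.90 to 1.45 and 2.52 to 2.86 CPM. For other markers the SLC22A10_OE range lay below that of vector. SDC1 was at 79.7 to 88.2 CPM there against 97.5 to 120 CPM in vector and 85.8 to 99.1 CPM in SLC22A15_OE, and CTRB1 at 0.07 to 0.29 CPM against 0.37 to 0.50 and 0.39 to 0.70 CPM. CHGA, the 1 of 6 endocrine markers with a row, was at 0.07 to 0.17 CPM against 0.48 to 1.06 and 0.47 to 0.60 CPM. The defining genes of acinar and plasma cells, PRSS1, CPA1, BHLHA15, MZB1 and JCHAIN, had no row, although both cell types are rich in ER chaperones. The part of these markers in the changes of the members was not tested.

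Other genes of the ER were taken from 9 lists of 154 genes, of which 149 were tested. Together 52 were higher and 43 lower in SLC22A10_OE (median 0.00) and 14 higher and 16 lower in SLC22A15_OE (median -0.04), close to the shares over all genes. The PERK branch was the list with no rise in either line: 0 higher and 4 lower of 10 tested in each. Over all genes tested, 34.7% were higher and 32.5% lower in SLC22A10_OE, against 10.8% and 9.58% in SLC22A15_OE. The same count of lower genes was thus nearer the share of all genes in SLC22A10_OE than in SLC22A15_OE. CEBPB, a bZIP factor downstream of ATF4, was at 20.4, 17.9 and 18.5 CPM in vector, 11.9, 11.5 and 12.4 CPM in SLC22A10_OE and 12.2, 10.3 and 8.80 CPM in SLC22A15_OE. Both lines lay below every vector library (log2 fold change -0.62, limma adjusted p 0.000139, and -0.81, adjusted p 7.96e-05). ATF4, the main effector of PERK, was at 125, 119 and 118 CPM in vector, 88.0, 94.0 and 102 CPM in SLC22A10_OE and 101, 92.7 and 95.9 CPM in SLC22A15_OE (-0.35, limma adjusted p 0.000161, and -0.32, adjusted p 0.00161). Also lower were EIF2S1 (-0.51) and PPP1R15B (-0.45) in SLC22A10_OE and PPP1R15A (-0.37) and ATF3 (-0.52) in SLC22A15_OE. DDIT3 (CHOP), the factor that links this branch to cell death, was at 5.63, 5.57 and 5.01 CPM in vector and did not pass in SLC22A10_OE (0.13, limma adjusted p 0.216) or SLC22A15_OE (-0.14, adjusted p 0.296). Both comparisons use the same vector libraries, so their shared direction is no independent support. ATF4 and DDIT3 in SLC22A10_OE and ATF3 in SLC22A15_OE are named after their values were seen.

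Of the other sensors and ER bZIP factors, 5 of 13 were higher and 3 lower in SLC22A10_OE, beside 34.7% and 32.5% of all genes. CREB3L1, a relative of CREB3L2, was at 0.123, 0.309 and 0.424 CPM in vector and 5.71, 5.92 and 5.32 CPM in SLC22A10_OE (2.38 ± 0.12, limma adjusted p 3.89e-09). CREB3L3, another relative that is best known in liver, was at 1.45, 0.703 and 0.901 CPM and then at 8.91, 9.36 and 9.64 CPM (2.37 ± 0.15, limma adjusted p 1.99e-08). BBC3 (PUMA), a cell death gene, rose by 1.90 from a mean of 2.62 CPM. RTCB, the ligase that joins the spliced XBP1 mRNA, fell by 0.39, BAK1 by 0.43 and CREBZF by 0.19. In SLC22A15_OE this list had 2 higher (BCL2L11, 0.25, and CREB3L1, 0.39) and 2 lower (BAK1, -0.26, and RTCB, -0.19). Over all genes tested, 10.8% were higher and 9.58% lower in that line.

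Of 21 further oxidoreductases and prolyl isomerases, 9 were higher and 4 lower in SLC22A10_OE, beside 34.7% and 32.5% of all genes. FKBP10 (0.87), ERP29 (0.77) and PDIA2 (1.13) had the smallest adjusted p among those higher, with TMX2 (-0.47), TMX1 (-0.42) and TMX4 (-0.21) lower. In SLC22A15_OE 6 were higher and 1 lower, where 10.8% of all genes tested were higher and 9.58% lower. Among them were TXNDC11 (0.45), ERO1B (0.51) and TMX4 (0.30), with FKBP14 at -0.34. Genes of N-glycosylation and glucose trimming, which make and edit the glycans that calreticulin reads, gave 8 higher and 1 lower of 16 in SLC22A10_OE. GANAB, the catalytic subunit of glucosidase II, rose by 0.49, DDOST and RPN2 of the oligosaccharyltransferase by 0.39 and 0.27, and UGGT2 fell by 0.48. In SLC22A15_OE that list had 0 higher and 1 lower (OSTC, -0.35). Of the other ER Hsp70 and Hsp40 genes, 1 of 10 was higher in SLC22A10_OE (DNAJC18, 0.78) and 2 lower (DNAJC25, -0.81, and DNAJB12, -0.17), and 2 were lower in SLC22A15_OE (DNAJC18, -0.36, and HSPA13, -0.22).

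Degradation, translocation and export lists were mixed in SLC22A10_OE, where 34.7% of all genes tested were higher and 32.5% lower. Of 25 further degradation genes 8 were higher and 11 lower. OS9, a lectin that delivers glycoproteins to the HRD1 complex, rose by 0.70, MAN1B1 by 0.65 and FAM8A1 by 0.59, whereas the ubiquitin-conjugating enzyme UBE2G2 fell by 0.93, UFD1 by 0.48 and FAF2 by 0.42. Of 21 further translocation genes 5 were higher and 9 lower: SSR4 rose by 0.47, SRP9 by 0.53 and SRP54 by 0.37, and SRPRB fell by 0.91, TRAM2 by 0.60 and SSR3 by 0.55. ER export had 8 higher and 7 lower of 21, with KDELR3 (0.89), SEC23A (0.57) and SEC24D (0.44) higher and KDELR2 (-0.44), SEC24A (-0.36) and SAR1B (-0.29) lower. ER-phagy receptors and ER membrane genes had 8 higher and 2 lower of 12, with CALCOCO1 (0.95), CKAP4 (0.56) and RETREG3 (0.44) higher and RTN4 (-0.51) and ATL3 (-0.26) lower.

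The same 4 lists gave few calls in SLC22A15_OE, where 10.8% of all genes tested were higher and 9.58% lower. The degradation list had 3 higher (RNF139, 0.41, FAM8A1, 0.22, and RHBDD1, 0.28) and 1 lower (FAF2, -0.17). The translocation list had 1 higher (SRP9, 0.39) and 2 lower (SSR3, -0.39, and TRAM1, -0.28). The export list had SEC23A higher (0.30) and KDELR2 (-0.23) and SEC24A (-0.20) lower. The ER membrane list had TEX264 higher (0.32) and RTN4 lower (-0.20).

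**Figure D5:**
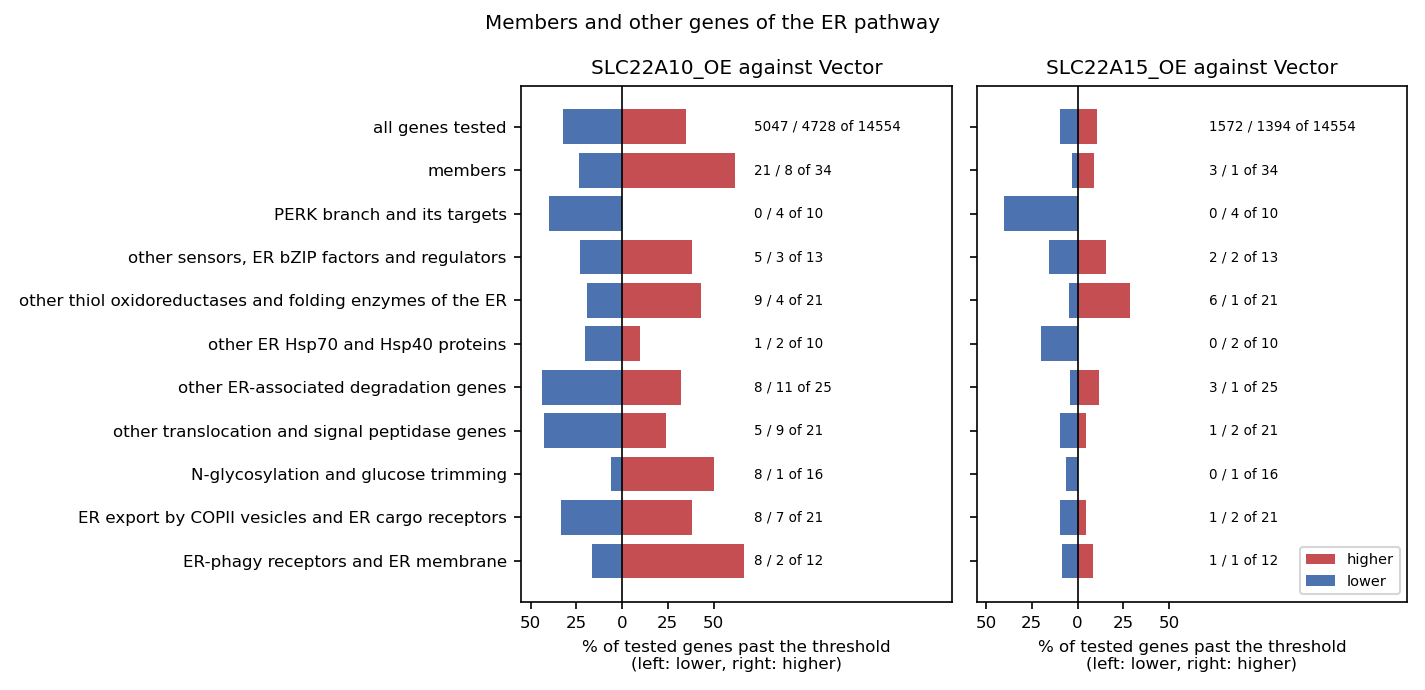
Share of tested genes (%, x axis) that were higher (red, right) or lower (blue, left) than vector at an adjusted p under 0.05, for all genes, the 34 members and 9 lists of other ER genes, with the counts printed as higher / lower of tested. The members' red bar in SLC22A10_OE reaches 61.8%, against 34.7% over all genes. That of the ER-phagy and ER membrane list reaches 66.7% and that of the N-glycosylation list 50%. The PERK list has no red bar in either panel. Members and lists were chosen with earlier results of these data known.

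Across the 9 libraries the profile of HSPA5 was much like those of RAPGEF2, EEF1A1 and PAIP2 (Pearson r 0.993 each) and LYPLAL1 (0.989), none of them a member. Among members the closest were XBP1 (0.976), HSP90B1 (0.971) and PDIA3 (0.968). These correlations describe 9 libraries in 3 lines, share the difference between lines and the library with little mitochondrial ribosomal RNA in each, and have no test.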

How the data were processed

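The deposited table held CPM per gene and library, scaled by the authors to an adjusted library size. The authors' comparison tables held, per the file headers, log2 fold changes, mean log2 CPM, an F statistic (a score), p-values with FDR, and −log10 of the FDR. Only their gene symbols were used. edgeR and the builds hg38 and mm9 are named in the submitters' processing notes without a role. Aligner, counter, strand setting and annotation are not stated in the labels or headers. Whole reads were recovered from the deposited CPM (100% within 0.1 read of a whole number). Columns gave the group and a number, and libraries carry that number.

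Genes that reached 1 CPM in 3 or more of the 9 libraries entered a single limma fit (3.58.1, R 4.3.3) of log2(CPM + 1) with trended, moderated variances, 6 residual degrees of freedom and 3 two-sided contrasts. Benjamini-Hochberg adjustment covered all 14554 genes and the threshold was 0.05. A pseudocount of 1 understates changes of low genes. The fit was checked on simulated data. Alternatives were other pseudocounts and filters, edgeR (4.0.16) and DESeq2 (1.42.0) on recovered reads, other scalings, a replicate block, a term for 3 libraries and leaving out libraries.

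Members, lists of other ER genes and markers were chosen with earlier results of these data known. Any member may be named, with up to 3 genes per list, direction and comparison by smallest adjusted p and the 5 profiles most like HSPA5. Some genes that these rules or the marker lists name are not reported here. Positions and promoters came from RefSeq GRCh38.p14 and exon lengths from GENCODE release 29. The span of 16 members overlaps another gene, among them HYOU1-AS1, CREB3L2-AS1, MIS12 (DERL2) and SMARCB1 (DERL3), and how shared reads were counted is not stated.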

Additional observations from a re-analysis of the deposited data

How the results depend on the processing

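No member that passed the threshold changed direction and stayed past it under any of the 21 alternatives. In SLC22A10_OE against vector, 23 of 29 calls held in each alternative that tested the gene; ATF6, DNAJB11, DERL2, SEC61B, HERPUD1 and HYOU1 lost theirs somewhere, and DERL3 was not tested at a minimum of 5 CPM. Leaving out 1 library gave 20 to 22 higher and 6 to 8 lower there, beside 31.9% to 35.3% and 29.3% to 33.2% of all genes. In SLC22A15_OE against vector it gave 3 higher each time and 0 to 2 lower, beside 7.79% to 13.2% and 6.46% to 11.0% of all genes. Between the lines it gave 5 to 7 higher and 19 to 21 lower, beside 27.4% to 32.4% and 29.2% to 33.6%. In SLC22A15_OE against vector, 2 members were lower with each library centred on its median, beside 11.6% of all genes. The term for libraries with little mitochondrial rRNA gave 7 higher and 6 lower beside 19.7% and 18.8% of all genes, and leaving those 3 libraries out gave 5 and 4 beside 16.1% and 14.8%; the cause was not tested. edgeR and DESeq2 on recovered reads each called 20 members higher and 8 lower in SLC22A10_OE, and 3 and 1 in SLC22A15_OE. Over all genes edgeR called 34.0% higher and 32.9% lower in SLC22A10_OE, and 10.5% and 9.96% in SLC22A15_OE. DESeq2 called 34.1% and 33.0%, and 11.5% and 11.2%.

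The replicate block on the column numbers left the counts at 21 higher and 8 lower, 3 and 1, and 7 and 20. The shares of all genes were then 34.4% and 32.2%, 10.2% and 8.93%, and 30.7% and 31.9%. Same-numbered columns had deviations that correlated at -0.41 to 0.57 over 9 pairs, without a common sign across the lines. These values do not settle whether the numbers pair the libraries. The 3 pairs of libraries with little mitochondrial rRNA correlated at 0.48 to 0.57. With 3 libraries a line and 1 line per transgene, the transgene and the clone cannot be told apart. At 1 CPM, counting error alone was 15.2% to 19%, which bears most on DERL3.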
